A study of Mus musculus with 8 samples.

Results

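The NCAM and L1 families are cell adhesion molecules of the immunoglobulin superfamily that neurons carry on axons, dendrites and synapses. 6 genes made up the set described here: Ncam1 and Ncam2 of the NCAM family, and L1cam, Chl1, Nrcam and Nfasc of the L1 family. They were taken by symbol, 6 of the 56576 genes in the deposited table. All 6 were abundant enough to be tested.

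Synaptic RNA was obtained from the neocortex of mice at postnatal day 15, by preparing synaptosomes and pulling down HA-tagged ribosomes from them. Control mice were Lhx6-Cre;ErbB4+/+;Rpl22HA/HA (4 libraries, replicates 1, 3, 4 and 5) and conditional mutants were Lhx6-Cre;ErbB4F/F;Rpl22HA/HA (4 libraries, replicates 2, 3, 4 and 5). Both groups therefore carried the Cre driver and the tagged ribosomal protein, and differed in the floxed alleles of Erbb4, the receptor tyrosine kinase that binds neuregulins. Lhx6-Cre recombines in the interneurons that arise from the medial ganglionic eminence and the preoptic area, and the tag thus marks parvalbumin and somatostatin interneurons together. The paper states, for the study as a whole, that replicates came from different brains and litters and that both sexes were used. All values are normalized counts, that is, read counts divided by a size factor for each library, and the libraries held 51010687 to 80226984 reads on genes.

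NCAM molecules bind each other across the cell gap and can carry long chains of polysialic acid, which loosen adhesion. L1 family molecules bind themselves and other immunoglobulin-type proteins outside the cell and ankyrins inside it, and through ankyrins they hold on to the spectrin skeleton. Both families are known for axon growth and guidance, and the L1 family also for the assembly of the axon initial segment and nodes.

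Erbb4, the targeted gene, was measured at 1640, 5377, 4306 and 3034 normalized counts in the controls and at 1711, 1648, 1233 and 1048 in the mutants. Its log2 fold change was -1.25 ± 0.34 (SE, n = 4 per genotype, limma, adjusted p = 0.58), past both thresholds used by the study, and the exact permutation test gave p = 0.086. The counts cover the constitutive regions of the whole gene, and how much of them the floxed part makes up is not given in the sources used here. The library labelled control replicate 1 lay below 2 of the mutant libraries, and in this respect went against its label. Results are therefore also given without it, and Erbb4 then had a log2 fold change of -1.58. Lhx6, whose promoter drives the Cre, had 1130, 1781, 1280 and 701 normalized counts in controls and 899, 964, 577 and 532 in mutants, a log2 fold change of -0.69 (limma, adjusted p = 0.58; exact permutation p = 0.11). The tagged ribosomal protein gene, Rpl22, had a log2 fold change of -0.47 (limma, adjusted p = 0.63; exact permutation p = 0.29).

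No member met the thresholds of the study, an unadjusted p of at most 0.05 with a fold change of at least 1.5. By the limma fit on log2(normalized count + 1), 0 of 6 members were called. An unadjusted p of at most 0.05 was reached by 0 of 6, beside 3.77% of all genes tested with such a p lower and 4.56% higher in mutants. An adjusted p under 0.05 was also reached by 0 of 6, beside 0.0449% lower and 0% higher. edgeR and DESeq2 called 0 members as well, though Nrcam had an unadjusted p of 0.048 by DESeq2, at a log2 fold change of -0.33, short of 1.5-fold. Of the 31171 genes tested, 7.15% were called, 3.17% lower and 3.98% higher in mutants. The fitted change was below 0 for 5 of the 6 members, with a median log2 fold change of -0.37, beside 46.6% of all genes tested and a median of 0.06. The members differed in how they varied. Ncam1, Ncam2 and Chl1 were lowest in mutant replicates 4 and 5, Nrcam was lower in every mutant library, and L1cam and Nfasc were lowest in the library labelled control replicate 1. The paper describes sequencing batches that no label ties to libraries, and the part of batch in these patterns was not tested.

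The start of each gene is shown for the members with the most negative fold changes among those for which the RefSeq table used here held a window. The 250 bases before the RefSeq start of Chl1, Ncam2 and Nrcam are given 5′ to 3′ on the strand of the gene (GRCm38.p6, the same assembly as mm10), in lower case with GC boxes, GGGCGG or its reverse CCGCCC, in capitals. The windows are chr6:103510626-103510875 for Chl1, chr16:81200447-81200696 for Ncam2 and chr12:44328635-44328884 for Nrcam, all on the plus strand.
Chl1: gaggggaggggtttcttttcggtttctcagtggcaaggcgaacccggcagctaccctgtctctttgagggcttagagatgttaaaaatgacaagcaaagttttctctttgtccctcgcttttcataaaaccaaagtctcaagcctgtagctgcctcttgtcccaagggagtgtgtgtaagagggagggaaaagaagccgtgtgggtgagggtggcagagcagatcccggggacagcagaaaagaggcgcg
Ncam2: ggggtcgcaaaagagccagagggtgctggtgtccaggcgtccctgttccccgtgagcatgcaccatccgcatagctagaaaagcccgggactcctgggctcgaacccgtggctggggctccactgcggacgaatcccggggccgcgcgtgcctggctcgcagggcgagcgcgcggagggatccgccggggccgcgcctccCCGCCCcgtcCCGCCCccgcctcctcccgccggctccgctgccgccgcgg
Nrcam: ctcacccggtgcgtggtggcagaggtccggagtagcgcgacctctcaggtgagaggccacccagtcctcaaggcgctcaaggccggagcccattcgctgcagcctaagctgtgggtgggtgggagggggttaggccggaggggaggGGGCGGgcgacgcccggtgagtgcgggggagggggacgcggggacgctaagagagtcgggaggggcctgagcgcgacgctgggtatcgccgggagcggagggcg

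The Chl1 window held no GC box and 8 CpG dinucleotides at a GC content of 52.4%. By contrast, the Ncam2 window held 2 GC boxes and 32 CpG dinucleotides at 75.2%, and the Nrcam window held 1 GC box and 25 CpG dinucleotides at 72.4%. The comparison set was 32851 windows of the same length and place, with chromosome 18 left out. Of these, 32.7% held a GC box on either strand, the median number of CpG dinucleotides was 6 and the median GC content 52.4%. TATAAA or its reverse was in none of the 3 windows shown and in 12.4% of the comparison set. Ncam1, L1cam and Nfasc were not shown. These letters describe the windows and were not tested against the counts.

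Ncam1, the main carrier of polysialic acid in brain, spans chr9:49502129-49799393 on the minus strand (mm10), with 7 annotated transcripts in GENCODE M21, the longest of 20 exons. Controls held 77088, 100935, 78347 and 54057 normalized counts (77607 ± 19145, SD, n = 4) and mutants 68816, 67772, 44137 and 43112 (55959 ± 14256, n = 4). 3 of the controls lay above every mutant, and 2 of the mutants lay below every control, but control replicate 5 fell within the mutant range. The log2 fold change was -0.47 ± 0.28 (SE, limma, 95% interval -1.10 to 0.15, p = 0.12, adjusted p = 0.60), and the exact permutation test, two-sided, gave p = 0.14. It was -0.24 after quantile normalization, and -0.59, past both thresholds, when libraries were weighted by how far they lay from the fit. Without control replicate 5 it was -0.64, which also passed. Reads over 417 of the 8664 exonic bases of Ncam1 cannot be told from those of Gm11149, an antisense gene, since the library kit does not mark strand.

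Ncam2, the paralogue of Ncam1, which is not a known carrier of polysialic acid, spans chr16:81200697-81624285 on the plus strand with 4 transcripts, the longest of 18 exons. It held 4023, 6163, 4419 and 3858 normalized counts in controls (4616 ± 1058, SD, n = 4) and 4247, 4283, 2676 and 2735 in mutants (3485 ± 901, n = 4). Mutant replicates 2 and 3 lay inside the control range and mutant replicates 4 and 5 below it. The log2 fold change was -0.42 ± 0.24 (SE, limma, 95% interval -0.94 to 0.11, p = 0.11, adjusted p = 0.59; exact permutation p = 0.23). Without control replicate 3, the highest library, it was -0.27.

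The NCAM genes varied together over the libraries. Ncam2 counts were 5.22%, 6.11%, 5.64% and 7.14% of Ncam1 counts in the controls and 6.17%, 6.32%, 6.06% and 6.34% in the mutants. This share of counts is not a ratio of transcripts, since the counts were not divided by length, but it can be compared between libraries. The log2 ratio differed by 0.06 between mutants and controls (exact permutation p = 0.60, adjusted p = 0.60 over 3 ratios), and mutant shares lay within the control range.

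Chl1, the close homologue of L1, spans chr6:103510876-103750202 on the plus strand, with 6 transcripts, the longest of 27 exons. It had the most negative fold change of the members and, over the 8 libraries, the widest range (4.57-fold). In the controls alone, L1cam (2.70-fold) and Nfasc (2.49-fold) ranged more widely than Chl1 (2.08-fold). Normalized counts of Chl1 were 18097, 33992, 23644 and 16341 in controls (23018 ± 7951, SD, n = 4) and 21445, 21876, 9195 and 7439 in mutants (14989 ± 7739, n = 4). Mutant replicates 4 and 5 lay below every control, while mutant replicates 2 and 3 lay above 2 of the controls. The log2 fold change was -0.72 ± 0.39 (SE, limma, 95% interval -1.57 to 0.13, p = 0.088, adjusted p = 0.58), and the exact permutation test gave p = 0.23. Its size exceeded the 1.5-fold threshold and its p did not pass. With library weights it was -1.10, and without mutant replicate 2 or 3 it was -0.95 and -0.96, each past both thresholds. Without mutant replicate 5 it was -0.44.

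Nrcam, which is known at the axon initial segment and nodes, spans chr12:44328885-44601964 on the plus strand with 17 transcripts, the longest of 28 exons. It was the only member whose genotypes did not overlap. Controls held 34496, 44838, 42644 and 32567 normalized counts (38636 ± 6014, SD, n = 4) and mutants 30657, 28557, 31354 and 31277 (30461 ± 1307, n = 4). Every mutant lay below every control, though the highest mutant was close to the lowest control. Of all genes tested, 2.17% had all mutants below all controls, and 4.93% had no overlap in either direction. The exact permutation test gave p = 0.029, the smallest that 4 against 4 libraries can give, in a family of 6 members. The log2 fold change was -0.33 ± 0.20 (SE, limma, 95% interval -0.78 to 0.12, adjusted p = 0.60), or 0.80-fold (95% interval 0.58 to 1.08), short of the study's thresholds. After quantile normalization it was -0.15, and the exact permutation test then gave p = 0.23. The mutants spread less than the controls, with a coefficient of variation of 4.29% against 15.6%, a difference that was not tested.

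L1cam, the founding member of the L1 family, spans chrX:73853778-73880834 on the minus strand, with 13 transcripts, the longest of 27 exons. It held 2987, 8059, 7585 and 5154 normalized counts in controls (5946 ± 2348, SD, n = 4) and 6034, 6272, 5545 and 5401 in mutants (5813 ± 409, n = 4). All mutants lay within the control range, with control replicates 3 and 4 above every mutant, and control replicate 5 and the library labelled control replicate 1 below every mutant. The log2 fold change was 0.07 ± 0.29 (SE, limma, 95% interval -0.57 to 0.71, p = 0.82, adjusted p = 0.95; exact permutation p = 0.91). Its direction was not stable. Without the library labelled control replicate 1 it was -0.23, and it was also below 0 with library weights (-0.17), edgeR (-0.014) and DESeq2 (-0.016). The interval does not show equal levels, since it includes changes of more than 1.5-fold higher. L1cam shares 100 of its 7347 exonic bases with Arhgap4 on the same strand.

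Nfasc, neurofascin, whose isoforms are known at the axon initial segment and nodes in neurons and at paranodes in glia, spans chr1:132564691-132741800 on the minus strand, with 10 transcripts, the longest of 30 exons. Controls held 1177, 2790, 2931 and 2391 normalized counts (2322 ± 797, SD, n = 4) and mutants 2401, 1869, 1955 and 2428 (2163 ± 292, n = 4). As with L1cam, every mutant lay within the control range, and the library labelled control replicate 1 was the lowest. The log2 fold change was -0.03 ± 0.29 (SE, limma, 95% interval -0.66 to 0.60, p = 0.93, adjusted p = 0.98; exact permutation p = 1.0). Without that library it was -0.33, and quantile normalization turned its direction, to 0.025. Leaving out any 1 of control replicates 3, 4 and 5 or mutant replicates 3 and 4 also put it above 0, at up to 0.11.

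**Figure D1:**
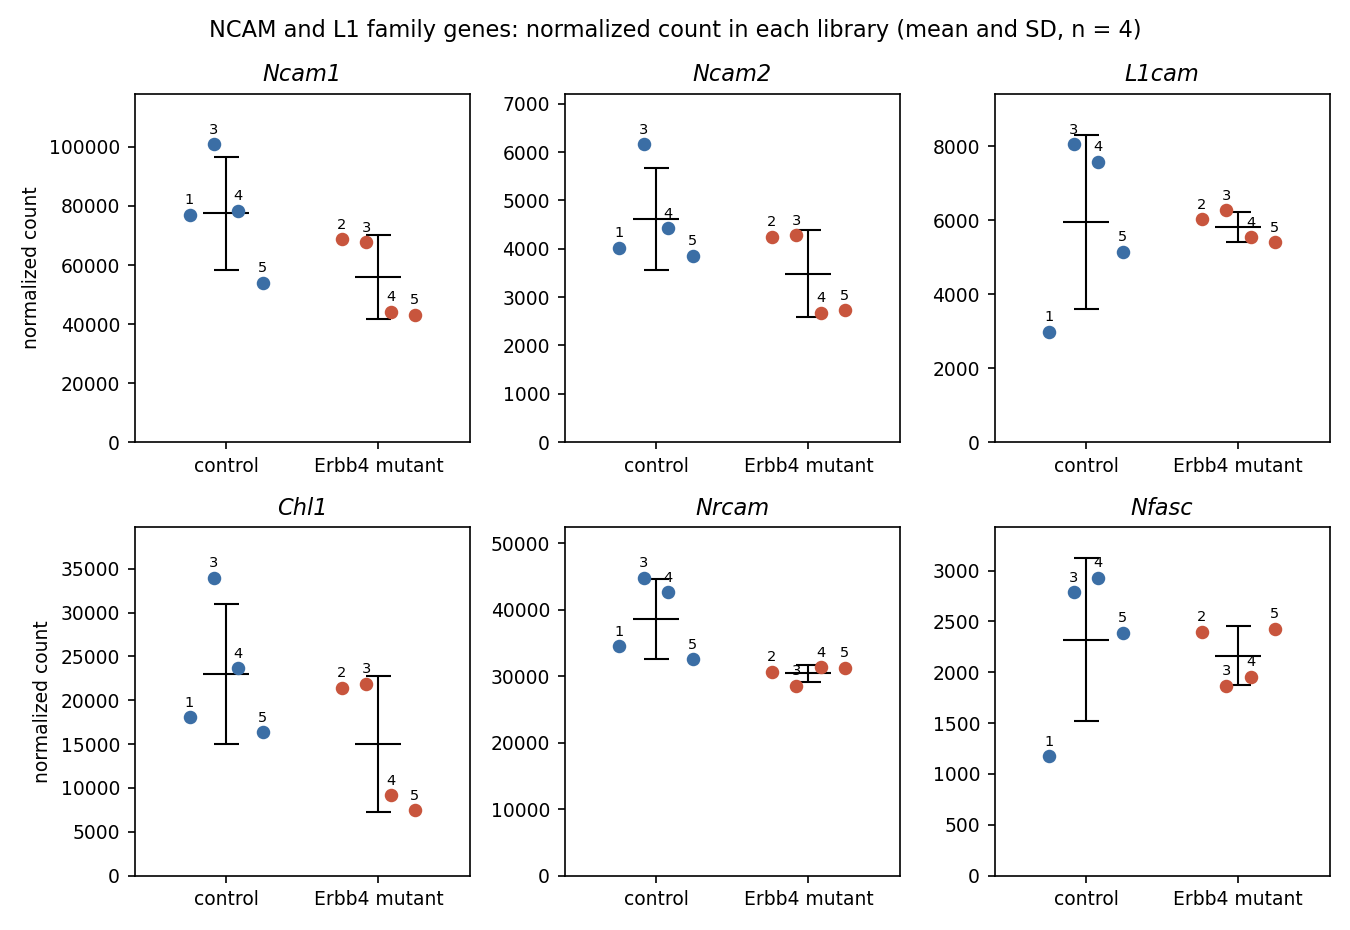
Normalized counts of the 6 members in each library, numbered by replicate, with the mean and SD of each genotype (n = 4, vertical axes from 0). Nrcam was the only member with every mutant below every control, Ncam1, Ncam2 and Chl1 were low in mutant replicates 4 and 5, and L1cam and Nfasc were lowest in the library labelled control replicate 1.

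Without the library labelled control replicate 1, all 6 members had a fitted change below 0 and 0 were called. The log2 fold changes were then -0.46 for Ncam1, -0.47 for Ncam2, -0.82 for Chl1 and -0.38 for Nrcam.

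**Figure D2:**
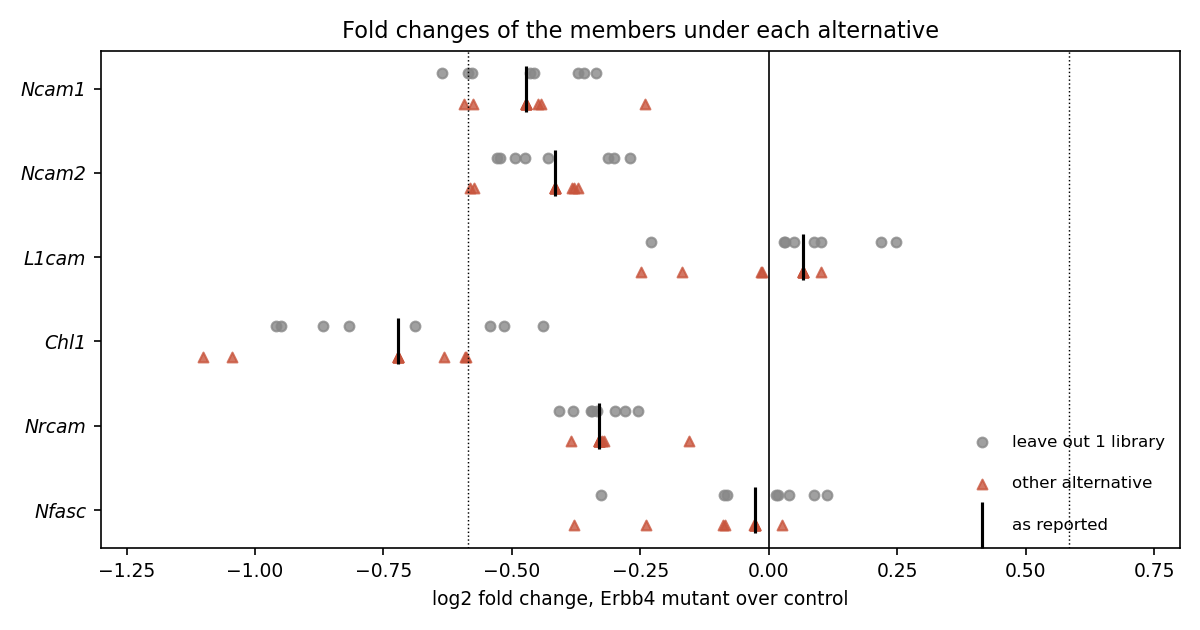
Log2 fold change of each member, mutant over control, as reported (black bar), with 1 library left out (grey points) and under the other alternatives (red triangles), with dotted lines at 1.5-fold. Ncam1, Ncam2, Chl1 and Nrcam lay below 0 under all 18 alternatives, while L1cam lay below 0 under 5 and Nfasc under 12.

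Within the L1 family, Chl1 counts were 606%, 422%, 312% and 317% of L1cam counts in controls and 355%, 349%, 166% and 138% in mutants. The log2 ratio differed by -0.79 between mutants and controls, with overlapping libraries (exact permutation p = 0.17, adjusted p = 0.43 over 3 ratios). Nfasc counts were 3.41%, 6.22%, 6.87% and 7.34% of Nrcam counts in controls and 7.83%, 6.55%, 6.24% and 7.76% in mutants, a log2 difference of 0.30 (exact permutation p = 0.29, adjusted p = 0.43). No ratio passed the test, and the smallest exact p that 4 against 4 libraries can give is 0.029.

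**Figure D3:**
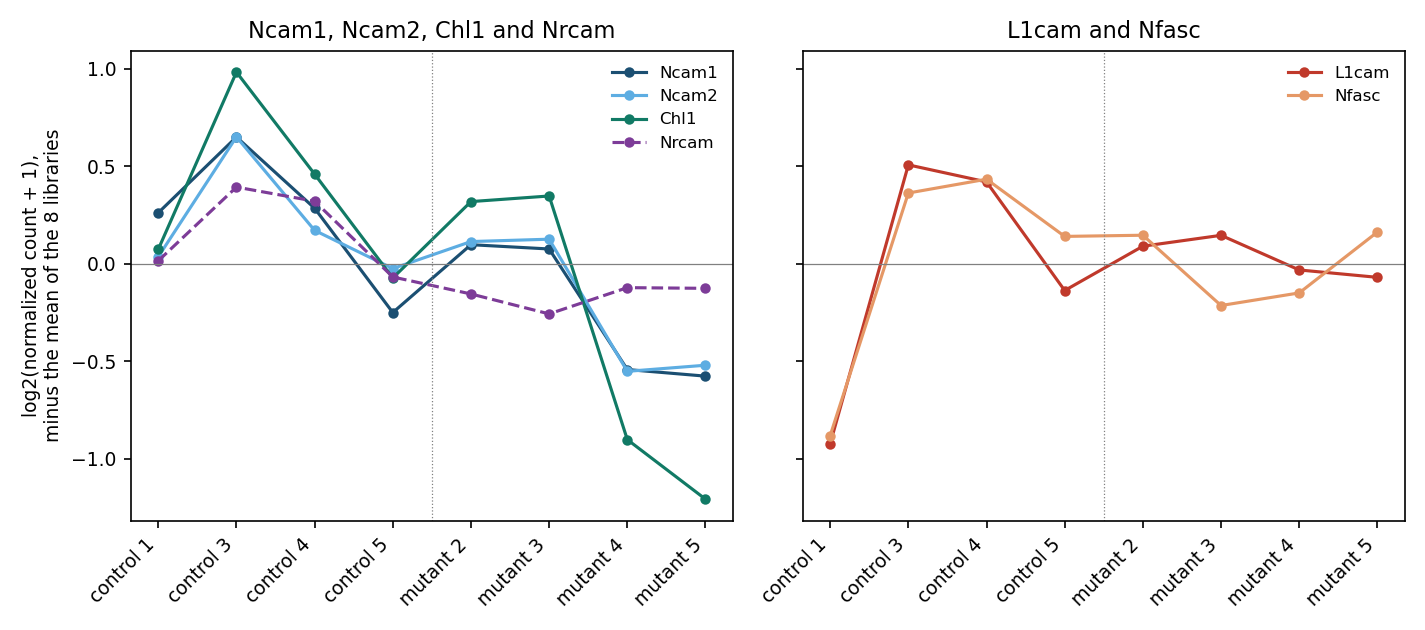
log2(normalized count + 1) of each member in each library, less its mean over the 8 libraries; the lines join the points of a gene and imply no order of the libraries. Ncam1, Ncam2 and Chl1 shared a high control replicate 3 and low mutant replicates 4 and 5, and L1cam and Nfasc shared a low library labelled control replicate 1. Control replicate 3 was also the highest library for L1cam and Nrcam.

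Likeness of pattern was measured as the root mean square distance between centred log2 profiles over the 8 libraries, with genotypes included, and is a description over points that share libraries. Ncam1 and Ncam2 were the closest members, at 0.12, followed by L1cam and Nfasc, at 0.19, and the farthest apart were Chl1 and Nfasc, at 0.72. Among 19136 genes with a mean of at least 100, Ncam2 was the 44th nearest to Ncam1 and Ncam1 the 21st nearest to Ncam2. The nearest genes were Slc3a1 (0.05) and Tmem201 (0.07) to Ncam1, and Kcna2 (0.09) and Slc24a3 (0.09) to Ncam2. Chl1 had Pcdh8 (0.12), a protocadherin, and Gria1 (0.14), an AMPA receptor subunit, as its nearest genes. For Nrcam they were Atp13a1 (0.04) and Ltbp3 (0.08), for L1cam Lemd3 (0.10) and Robo2 (0.11), an axon guidance receptor, and for Nfasc Sncaip (0.12) and Fam189a1 (0.13).

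Levels between genes were compared per kilobase of the longest annotated transcript, as a mean over the 4 controls. Ncam1 was the highest, at 11823 ± 2917 normalized counts per kilobase (SD), followed by Nrcam at 6157 ± 958, Chl1 at 3044 ± 1051, L1cam at 1160 ± 458, Ncam2 at 756 ± 173 and Nfasc at 238 ± 81.8. Neighbours in this order did not overlap in the controls except L1cam (583 to 1572) and Ncam2 (632 to 1009). In the mutants the order of the means was the same, and there Chl1 (984 to 2893) overlapped L1cam (1054 to 1224), with no other neighbours overlapping. Divided by the median transcript length instead, L1cam (8434) lay above Chl1 (6072) in the controls, so the order of these genes depends on the length used, and the length of the counted regions is not given in the sources used here.

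Genes that work with the members were described from a list of 34, of which 33 could be tested; Prnp shares a row with Prnd and was left out. 14 had a fitted change below 0 and 19 above, with a median log2 fold change of 0.08. 4 of 33 (12.1%, beside 7.15% of all genes tested) met the thresholds, Gap43 lower and Msn, Adam10 and Adam17 higher in mutants, and none of them had an adjusted p under 0.05 by limma.

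Neither of the enzymes that add polysialic acid to NCAM passed the test. St8sia2 had 53.2, 89.3, 150 and 66.8 normalized counts in controls and 41.9, 56.3, 71.8 and 25.8 in mutants (log2 fold change -0.85, limma, adjusted p = 0.63; exact permutation p = 0.14). St8sia4, the more abundant in counts, had 792, 2629, 1462 and 867 in controls and 2285, 2229, 1935 and 1851 in mutants (log2 fold change 0.70, limma, adjusted p = 0.58; exact permutation p = 0.17). All but the highest St8sia4 control lay below every mutant. St8sia4 met both thresholds after quantile normalization (0.76), with library weights (0.61) and without control replicate 3 (1.04), and was at 0.47 without the library labelled control replicate 1.

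Of 10 adaptors to the cytoskeleton, 8 had a fitted change above 0 (median 0.16) and 1 was called. Msn, moesin, which links membrane proteins to actin, had 29273, 49581, 47203 and 48952 normalized counts in controls and 64957, 58446, 76342 and 65727 in mutants. Every mutant lay above every control, as for 2.76% of all genes tested, and the log2 fold change was 0.63 ± 0.25 (SE, limma, adjusted p = 0.58; exact permutation p = 0.029). Without the library labelled control replicate 1 it was 0.44, under 1.5-fold, and without mutant replicate 2, 4 or 5 it did not meet the thresholds either. Ank2 (0.09) and Ank3 (-0.08), ankyrins that bind L1 family tails, and the spectrins Sptbn1 (0.39) and Sptbn4 (0.08) had log2 fold changes that did not pass. Sptbn1 met both thresholds after quantile normalization (1.08), and was at 0.20 without the library labelled control replicate 1. Dcx, doublecortin, which binds neurofascin, was at 0.60 (limma, adjusted p = 0.64), and at 0.26 without the library labelled control replicate 1. The directions of Ank2, Ank3 and Sptbn4 were not stable, and Ank2 and Sptbn4 lay at -0.11 and -0.35 without the library labelled control replicate 1.

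Sheddases, which cut L1 family proteins and NCAM from the membrane, gave 2 of the higher calls. Adam10 had 2084, 6295, 5393 and 4329 normalized counts in controls and 6755, 7014, 6382 and 6596 in mutants, with no overlap, and a log2 fold change of 0.68 ± 0.30 (SE, limma, adjusted p = 0.58; exact permutation p = 0.029). Adam17 had 2755, 4517, 4438 and 3405 in controls and 6249, 4459, 5656 and 6143 in mutants, with mutant replicate 3 below the highest control (log2 fold change 0.59 ± 0.22, SE, limma, adjusted p = 0.58; exact permutation p = 0.057). Without the library labelled control replicate 1 they were at 0.34 and 0.45, and neither met both thresholds. Adam10 kept its call with neither edgeR nor DESeq2, and lost it without control replicate 5 or any mutant library. Adam17 lost it without control replicate 5 or mutant replicate 2, 4 or 5. Bace1, which cleaves Chl1, had a log2 fold change of -0.23 (limma, adjusted p = 0.70).

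Among 12 surface partners, 7 had a fitted change below 0 (median -0.16) and 0 were called by limma. Cntn1, contactin, which binds Nrcam and neurofascin, had 54730, 124740, 71629 and 51515 normalized counts in controls and 72754, 82312, 38667 and 36584 in mutants (log2 fold change -0.39, limma, adjusted p = 0.72). It was again highest in control replicate 3 and lowest in mutant replicates 4 and 5, and without control replicate 3 it was -0.12. Cntn2 and Cntnap1 were at -0.13 and -0.46, and both met the thresholds at -0.69 and -0.84 without the library labelled control replicate 1, in which both were lowest. Cntnap1 also met them with library weights (-0.88), and was at -0.11 without control replicate 3. Fgfr1, a receptor that binds NCAM, was at 0.17 (limma, adjusted p = 0.76).

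Of 6 signalling partners, Gap43 was the only one called. Gap43, a growth cone protein that takes part in NCAM signalling, had 5194, 3900, 2020 and 1766 normalized counts in controls and 2393, 1748, 1192 and 1292 in mutants, with a log2 fold change of -0.87 ± 0.36 (SE, limma, adjusted p = 0.58; exact permutation p = 0.11). 3 of the mutants lay below every control, and mutant replicate 2 lay within the control range. Without the library labelled control replicate 1, the highest, it was -0.59, and it did not pass then, nor without control replicate 3 or mutant replicate 3, 4 or 5.

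**Figure D4:**
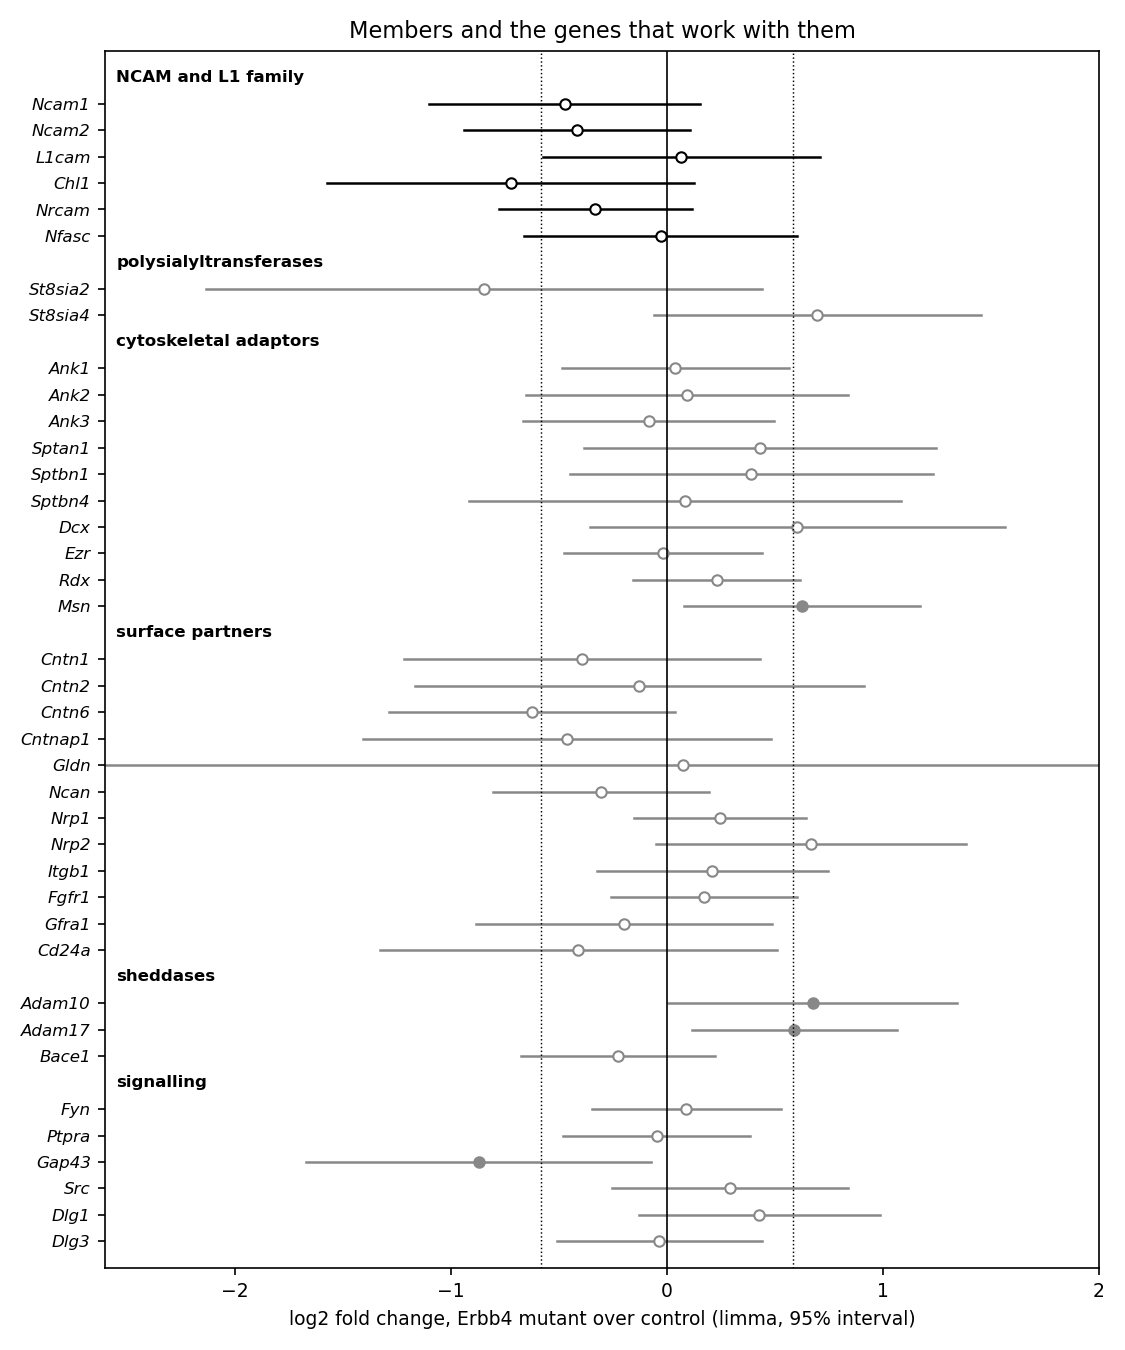
Log2 fold changes, mutant over control, with 95% intervals from limma for the 6 members (black) and 33 genes that work with them (grey), with dotted lines at 1.5-fold and filled points for the 4 genes that met both thresholds. Every member interval includes 0, and the interval of Gldn, which was at 0 in some libraries, runs beyond the axis.

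Markers of interneurons also moved between the libraries. Summed over 13 markers of medial ganglionic eminence interneurons, controls ranged from 26208 to 82633 normalized counts, highest in control replicate 3, and mutants from 14871 to 40172, lowest in mutant replicates 4 and 5. All 12 tested markers of that list had a fitted change below 0 (median -0.76) and 2 were called lower, while Nkx2-1 was at 0 in some libraries. Parvalbumin interneuron markers were called lower for 4 of 9 (median -1.10, sums 35475 to 124406 in controls and 23338 to 49511 in mutants), and for 8 somatostatin interneuron markers the median was -1.04 (sums 50657 to 424479 and 16069 to 174488). Ncam1, Ncam2 and Chl1 were likewise highest in control replicate 3 and lowest in mutant replicates 4 and 5, but did not follow these sums throughout. The library labelled control replicate 1 lay above mutant replicates 2 and 3 in the sum of each of these lists. For Chl1 (18097 against 21445 and 21876) and Ncam2 (4023 against 4247 and 4283) that library lay below both. A lower count in a bulk pulldown cannot tell fewer tagged synapses of a type from less RNA in each. The part of these markers in the members' values was not tested.

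Markers of other cells were detected as well. For 10 oligodendrocyte markers the sums ranged from 229955 to 673772 in controls, highest in the library labelled control replicate 1, and from 202878 to 287269 in mutants, and 3 of 10 were called lower (median -0.62). Nfasc and L1cam were lowest in that same library. 10 endothelial and mural markers summed to 174080 to 274713 in controls and 267749 to 287980 in mutants, with 4 called higher (median 0.54). For 10 astrocyte markers the sums ran from 137528 to 248821 and from 145294 to 163293 (median -0.17), for 10 microglia markers from 27343 to 55837 and from 28340 to 33704 (median -0.44), and for 10 excitatory neuron markers from 115471 to 153321 and from 111062 to 137821 (median -0.15). None of the markers in these 5 lists was at 0 in any library. The medians were -0.60 for 9 tested markers of caudal ganglionic eminence interneurons and 0.04 for 6 of oligodendrocyte precursors. Their part in the members' values was not tested either.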

How the data were processed

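RNA of HA-tagged ribosomes from neocortical synaptosomes was amplified with the SMARTer Ultra Low kit, which does not mark strand, and sequenced in paired ends. The authors aligned reads with STAR 2.4.0 to mm10, counted those on the constitutive regions of Mouse Fast DB genes, and divided the counts by DESeq2 size factors. The deposited values are these normalized counts, a signal that is never negative; every value is a whole number of reads within a tolerance of 0.05, so the reads could be recovered, and depth was 51010687 to 80226984 reads on genes per library. The paper describes sequencing in batches. No label ties libraries to them, so no within-batch value was computed and no fit had batch as a term.

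From these values, log2(normalized count + 1) was fitted with limma 3.58.1 (empirical Bayes with trend, R 4.3.3) over all 31171 genes with a mean of at least 10 in at least 1 genotype, 4 libraries against 4. 13797 of these rows have no symbol, and 16918 genes at 0 in all libraries were left out. A gene was called at a p of 0.05 or less, unadjusted, with 1.5-fold or more between genotypes; adjusted p-values are Benjamini-Hochberg over all genes tested. Single members and ratios of members were compared by exact permutation tests, two-sided (scipy 1.17.1). As alternatives, the recovered reads were fitted by DESeq2 1.42.0 and by the quasi-likelihood test of edgeR 4.0.16 with TMM scaling. Other alternatives were pseudocounts of 0.1 and 10, no filter, a mean of at least 100, quantile normalization, no trend, library weights, a replicate block and the omission of each library. The fitting steps were tested on simulated data first.

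Gene lengths and overlaps are from GENCODE M21, promoter windows from RefSeq (GRCm38.p6; 5 of the 6 members matched). The text names the 6 members, Erbb4, Rpl22 and Lhx6, the linked genes that met the thresholds or were listed by name (Ank2, Ank3, Sptbn1, Sptbn4, Dcx, St8sia2, St8sia4, Adam10, Bace1, Cntn1, Cntn2, Cntnap1 and Fgfr1), and the 2 genes nearest to each member in pattern. Gldn, Prnp and Nkx2-1 are named as exceptions, chosen after their values were seen. The members and lists were chosen with earlier results of these data known.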

Additional observations from a re-analysis of the deposited data

Results flagged for a closer look

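Each group of 4 libraries was searched for a library far from the others, by Dixon's criterion, in 37 genes the text names (74 groups). 2 were found, and chance alone gives about 3.7 among 74. Msn had 29273 normalized counts in the library labelled control replicate 1, against 47203 to 49581 in the other controls. Sncaip, the gene nearest to Nfasc in pattern, had 311 in that library, against 690 to 746 in the other controls. Both are in the library whose Erbb4 count went against its label. Sncaip was searched because its pattern lies nearest to that of Nfasc, which was itself lowest in that library. Its flag is therefore not a separate sign.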

How the results depend on the processing

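Under 10 alternative settings and 8 omissions of a library, Ncam1, Ncam2, Chl1 and Nrcam stayed below 0. With library weights, Ncam1 (-0.59) and Chl1 (-1.10) met the thresholds, L1cam was -0.17, 2 members, 1633 genes and 2 linked genes were called lower and 1997 genes higher. L1cam was -0.014 with edgeR and -0.016 with DESeq2, and Nfasc 0.025 after quantile normalization, where Nrcam was -0.15 (exact permutation p = 0.23) and 5 linked genes were called higher. DESeq2 called 1573 genes lower and 1261 higher, 55.5% lower against 44.3% with limma, and edgeR and DESeq2 each called 2 linked genes lower. Without the trend, 0 linked genes were called lower and 1 higher. Where the adjusted p had to be under 0.05, limma called 14 genes lower and 0 higher and no linked gene, edgeR 10 and 0, and DESeq2 36 and 32. Among linked genes that were not called, Ank2 was -0.061 with library weights, and Sptbn4 -0.25 with library weights, -0.14 with edgeR and -0.14 with DESeq2. The cause of these changes was not tested.

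Whether the replicate numbers pair the samples is not given by the labels. Deviations of same-numbered libraries correlated at 0.10, 0.098 and 0.082, beside a mean of -0.021 for other pairs. Replicates 3 and 4 but not 5 matched best with their own number, and these values do not settle the pairing. With the number as a block, L1cam was -0.25, Chl1 -1.04, Ank2 -0.023, Sptbn4 -0.18 and the Ncam2 to Ncam1 log2 ratio -0.0052. In that fit 1 member (Chl1), 1719 genes and 4 linked genes were called lower. 0 linked genes were called higher, and 54.3% of calls were lower. Ncam1 (-0.58) and Ncam2 (-0.58) passed the unadjusted p threshold with the block, unlike in the main fit, but fell short of 1.5-fold. Both NCAM genes also passed the unadjusted p threshold with library weights and no block, at -0.59 for Ncam1 and -0.57 for Ncam2. Ncam1 passed it without control replicate 5 as well (-0.64). Whether these NCAM genes pass on p therefore depends on the setting, and not on the block alone. 0 genes had an adjusted p under 0.05 with the block. For single members and ratios, 3 pairs cannot give an exact p under 0.25, nor 4 libraries against 3 one under 0.057, so those fits say nothing of stability.

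With 1 library left out, the log2 fold changes ranged from -0.64 to -0.34 for Ncam1, -0.53 to -0.27 for Ncam2, -0.23 to 0.25 for L1cam, -0.96 to -0.44 for Chl1, -0.41 to -0.25 for Nrcam and -0.33 to 0.11 for Nfasc. They ranged from -0.11 to 0.31 for Ank2, -0.27 to 0.10 for Ank3, 0.20 to 0.53 for Sptbn1, 0.26 to 0.87 for Dcx, 0.47 to 1.04 for St8sia4, -0.35 to 0.39 for Sptbn4 and -0.69 to 0.14 for Cntn2. The ratios ranged from -0.0093 to 0.14 (Ncam2 to Ncam1), -0.997 to -0.54 (Chl1 to L1cam) and 0.05 to 0.42 (Nfasc to Nrcam). Members called lower numbered 0 to 1 and members below 0 numbered 4 to 6, genes called lower 515 to 1977 and higher 619 to 1792, linked genes lower 0 to 2 and higher 0 to 5. The lowest counts of genes came without mutant replicate 5 (lower) and 4 (higher), the highest without control replicate 5 (lower) and 4 (higher). With 4 libraries per genotype and intervals as wide as those given, changes under 1.5-fold in the members were mostly not detectable.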
